A study of Mus musculus with 33 samples.

Results

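The genes described here encode the main heat shock proteins of the cytosol and of the mitochondrial matrix. The set holds 10 genes of the 55376 gene symbols counted in each library. They are Hspa1a and Hspa1b (the inducible Hsp70 pair), Hspa8 (the constitutive Hsp70), Dnaja1 and Dnajb1 (J proteins of the Hsp40 class), Hsph1 (an Hsp110), Hsp90aa1 and Hsp90ab1 (the cytosolic Hsp90 isoforms), and Hspd1 and Hspe1 (Hsp60 and Hsp10 of mitochondria). The set was chosen by the RNA levels of Dnaja1 and Hspa1b, which had been seen lower in HSCs and GMPs of mice given nicotinamide riboside in these same libraries. For this reason the contrast of treated with untreated cells in those 2 cell types is given below as a description without a test. Tests are given for CLPs, for a separate cohort of HSCs and for differences between cell types.

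Bone marrow progenitors were sorted from old C57BL/6 male mice of 24 to 29 months. The cell types were hematopoietic stem cells (HSCs, which renew themselves and give rise to all blood cells), common lymphoid progenitors (CLPs, upstream of B and T cells) and granulocyte-monocyte progenitors (GMPs, upstream of neutrophils and monocytes). O-WT mice were untreated. O-NR mice had nicotinamide riboside (NR), a vitamin B3 form from which cells make NAD+, in their drinking water for 4 to 6 weeks, and O-NR-RC mice had NR followed by 2 months without it. No group carried an induced mutation, and every group was old, so no young reference entered these comparisons. The libraries that the labels call cohort 2 comprised 4 O-WT and 4 O-NR libraries of each cell type, 24 in all. Cohort 1 comprised HSCs only, with 4 libraries of O-NR, 3 of O-NR-RC and 2 of O-WT. A library is called by its group and number below. It is not stated whether each library came from a separate mouse, nor whether libraries of different cell types with the same number came from the same mouse. P-values therefore measure the spread between these libraries. One label field names the GMPs as common myeloid progenitors, and the name in their titles is used here.

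Hsp70 proteins hold unfolded stretches of other proteins in a cycle driven by ATP. J proteins bring clients to Hsp70 and start ATP hydrolysis, and Hsp110 proteins release the nucleotide so that the cycle can begin again. Hsp90 receives partly folded clients, among them kinases and steroid receptors, while Hsp60 and its lid Hsp10 enclose proteins that have entered the mitochondrion. Transcription of many of these genes is raised by heat shock factor Hsf1 when unfolded proteins accumulate, through promoter elements built of inverted repeats of the unit nGAAn. Hspa8 and Hsp90ab1 are made at high levels in unstressed cells, whereas Hspa1a and Hspa1b are low until stress.

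Total RNA was sequenced, and reads counted per gene ranged from 4792380 to 18213674 per library in cohort 2 and from 8897256 to 23816042 in cohort 1. The cell type labels were checked against markers in O-WT. All 5 CLP markers were higher in CLPs than in HSCs, all 5 GMP markers were higher in GMPs than in HSCs, and all 5 HSC markers were lower in both progenitors than in HSCs, each with an adjusted p below 0.05 in edgeR's quasi-likelihood test. In cohort 1, 4 libraries stood apart. Reads on 1971 olfactory and vomeronasal receptor genes, which blood cells are not known to use, reached 14277 to 15260 CPM (reads scaled to a fixed library total) in O-NR 1 and 2 and O-NR-RC 2 and 3, against 4445 to 9082 in the other 5 libraries and 858 to 8303 in cohort 2. Results of cohort 1 are therefore given with and without those 4 libraries.

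Sequences near the start sites are shown because the members differ in how many GAA units lie there. Of the 10 members, 7 had promoter entries in RefSeq, with 12 start sites in all, and Hspa8, Hsp90aa1 and Hsp90ab1 are named only. The 250 bases before each start were searched on both strands for GAANNTTC (units that face each other), TTCNNGAA (units that point away) and GAANNTTCNNGAA with its complement TTCNNGAANNTTC (a run of both kinds, which overlaps the shorter motifs). Coordinates are of GRCm38.p6, each line is 30 bases written 5′ to 3′ on the strand of the gene, and capitals mark the matches.
Hspe1, chr1:55088053-55088082, plus strand: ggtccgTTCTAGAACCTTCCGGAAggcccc
Hspd1, chr1:55088053-55088082, minus strand: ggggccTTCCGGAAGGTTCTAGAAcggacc
Dnaja1, chr4:40722333-40722362, plus strand: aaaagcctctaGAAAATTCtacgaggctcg
Hspa1b, chr17:34959324-34959353, minus strand: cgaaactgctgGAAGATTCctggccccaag
Hspa1a, chr17:34972242-34972271, minus strand: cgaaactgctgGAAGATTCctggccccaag
Hsph1, chr5:149636351-149636380, minus strand: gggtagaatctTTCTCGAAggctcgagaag
The first pair of lines is the same DNA read from either strand, since Hspe1 and Hspd1 are divergent neighbours whose annotated exons overlap by 112 bases. This window held 2 overlapping matches to the longer motif, and no other window of the members' promoters held one. The nearer match lay 71 bases from the Hspe1 start, and the nearer one 126 bases from 1 of the Hspd1 starts. Of 32851 promoters of the same length, 0.466% held it, while 6.69% held GAANNTTC and 7.17% held TTCNNGAA. The nearest match lay 116 bases before a Dnaja1 start, 96 bases before the Hspa1a and Hspa1b starts and 25 bases before an Hsph1 start, and neither Dnajb1 start had one. All 30 bases of the Hspe1, Hspd1 and Dnaja1 windows lay in annotated exons, as did 26 of the Hsph1 window. For the Hspa1a and Hspa1b windows it was 0 bases. The Hspa1a and Hspa1b windows are identical, and 3 of the 250 promoter bases differed between the copies. These are matches of letters, and binding was not measured. Their part in the levels of the members was not tested.

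The copies Hspa1a (chr17:34969190-34972156, minus strand) and Hspa1b (chr17:34956436-34959238, minus strand) lie 9951 bases apart. Of all stretches as long as a read in the Hspa1b transcript, 48.9% also occur in another transcript, and for Hspa1a this share was 55.4%. The share was 62.5% for Hspa8, 46.2% for Hsp90aa1, 25.7% for Hspd1, 23.6% for Dnaja1 and 21% for Hspe1, largely through pseudogenes, and 0% for Dnajb1, Hsph1 and Hsp90ab1. Exons of Dnaja1 overlap those of Smu1 on the other strand, and exons of Hspa1a overlap Gm20481. How the counting treated reads with several places and strand is not stated, so the split between Hspa1a and Hspa1b is uncertain and their sum is given as well.

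In O-NR HSCs of cohort 2, members of the cytosolic Hsp70 machine lay below their O-WT levels, while Hspd1 lay at the same level in both. Dnaja1 and Hspa8 were lower in every O-NR library than in any O-WT library, and Hsph1 had the largest fitted difference of the 8 members that passed the filter on low counts. Levels here are CPM, the reads of a gene scaled to a fixed library total with edgeR's TMM method within the cell type, and differences are log2 fold changes ± SE from the fit across all genes that passed the filter. In bulk libraries, fewer cells of a type and less RNA per cell cannot be told apart.

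Dnaja1, the J protein that delivers clients to Hspa8 (chr4:40722150-40737149, plus strand), was at 104.6, 126, 108 and 170 CPM in O-WT HSCs 1 to 4. In O-NR HSCs 1 to 4 it was at 94.1, 81.9, 77.2 and 78.5 CPM. The groups did not overlap, with means of 127 ± 30.1 and 82.9 ± 7.70 CPM (SD, n = 4 each) and a log2 fold change of -0.62 ± 0.14. Hspa8, the constitutive Hsp70 (chr9:40800984-40810087, plus strand), was at 1202, 1081, 1142 and 1693 CPM in O-WT and at 1015, 833, 905 and 946 CPM in O-NR, with a log2 fold change of -0.47 ± 0.15. O-WT 4 was the highest library for both genes. Groups that did not overlap, with the lower values in O-NR, were seen for 1.13% of the 17364 genes fitted in HSCs, and for 2 of the 8 members. Since these contrasts chose the set, nothing is read from that count.

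Hsph1, the Hsp110 that recycles Hsp70 (chr5:149614287-149636376, minus strand), was at 62.4, 118, 91.5 and 162 CPM in O-WT HSCs. In O-NR HSCs it was at 64.5, 58.7, 45.3 and 65.5 CPM, a log2 fold change of -0.90 ± 0.21. The groups overlapped because O-WT 1 lay among the O-NR libraries, while the other 3 O-WT libraries lay above them. The Hsp90 isoforms differed less. Hsp90aa1, the inducible isoform, was at 559, 440, 574 and 861 CPM in O-WT and at 600, 429, 453 and 474 CPM in O-NR, and O-WT 4 alone lay above all O-NR libraries. It had a log2 fold change of -0.32 ± 0.18 and Hsp90ab1, the constitutive isoform, had -0.17 ± 0.19. Dnajb1, the J protein that works with Hsp70 and Hsp110 on aggregated proteins, had -0.21 ± 0.14. For Hspd1, O-WT libraries held 110, 111, 120 and 154 CPM and O-NR libraries 118, 121, 119 and 133 CPM, so that only O-WT 4 lay above all O-NR libraries. In mitochondria, the Hsp10 lid Hspe1 had -0.28 ± 0.17 and the Hsp60 chamber Hspd1 -0.02 ± 0.12. All 8 fitted values were below 0, as were 54.6% of all genes fitted, and the median of the members was -0.30 against -0.02 for all genes. Nothing is read from these values either, since the contrast chose the set.

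Hspa1a and Hspa1b failed the filter of over 3 CPM in at least 4 libraries. Hspa1b had 20, 58, 45 and 139 reads in O-WT HSCs, which corresponds to 1.68, 6.57, 4.72 and 10.1 CPM. In O-NR HSCs it had 25, 27, 36 and 17 reads, or 2.25, 2.95, 2.79 and 1.78 CPM. O-WT 1 lay below every O-NR library and O-WT 4 above all others. Fitted without the filter, the log2 fold change was -1.17 ± 0.38 for Hspa1b and -0.39 ± 0.56 for Hspa1a, and the summed copies had -1.03 ± 0.40. Without O-WT 4 the log2 fold change of Dnaja1 was -0.43, and Hspd1 lay above 0. In the same HSC libraries, the 5 tested of 7 plasma and B cell markers were lower in O-NR. Their summed level ran from 68.7 to 771 CPM in O-WT and from 23.3 to 129 CPM in O-NR, led by Ighm, the immunoglobulin heavy chain, at 161 against 5.4 CPM on average. None of the 7 markers was at 0 in every library of either group, and their part in the levels of the heat shock genes was not tested.

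In GMPs, Dnaja1, Hspa8 and Dnajb1 were lower in every O-NR library than in any O-WT library, and the chaperonin pair lay near 0. Dnaja1 was at 104.7, 141, 118 and 127 CPM in O-WT GMPs 1 to 4 and at 93.7, 91.3, 83.8 and 89.98 CPM in O-NR, a log2 fold change of -0.45 ± 0.09. Hspa8 was at 2002, 2955, 2312 and 2742 CPM against 1953, 1717, 1512 and 1855 CPM, or -0.51 ± 0.11. Dnajb1 was at 32.7, 38.5, 30.6 and 41.7 CPM against 28.3, 27.3, 29.7 and 28.5 CPM, or -0.33 ± 0.10. The groups of these 3 genes did not overlap, which held with lower O-NR values for 1.87% of 13486 genes. As in HSCs, the contrast chose the set, and nothing is read from that count. Hsph1 was at 107, 194, 121 and 203 CPM in O-WT and at 98.9, 87.3, 72.0 and 108 CPM in O-NR, a log2 fold change of -0.77 ± 0.18, and the groups overlapped by 1 library on each side.

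Hspa1b had 32, 152, 58 and 154 reads in O-WT GMPs and 9, 11, 25 and 17 reads in O-NR. In CPM this was 2.12, 8.92, 4.12 and 12.8 against 0.649, 0.753, 1.98 and 1.44. The groups did not overlap, but O-WT 1 at 2.12 CPM and O-NR 3 at 1.98 CPM nearly met. Without the filter the log2 fold change was -2.57 ± 0.29 for Hspa1b and -1.51 ± 0.36 for Hspa1a. Hspd1 was at 335, 402, 317 and 375 CPM in O-WT and at 394, 352, 322 and 352 CPM in O-NR, and Hspe1 at 78.5, 114, 81.6 and 113 CPM against 102, 89.0, 81.3 and 108 CPM. For both genes every O-NR library lay within the O-WT range. The fitted differences were -0.31 ± 0.16 for Hsp90aa1, -0.15 ± 0.11 for Hsp90ab1, -0.03 ± 0.13 for Hspe1 and -0.01 ± 0.09 for Hspd1. All 8 members that passed the filter were fitted below 0, where 50.6% of all genes were, and their median was -0.32 against -0.0018 for all genes. This contrast was also used to choose the set, so nothing is read from these values. Among related lists, Hsp90 cochaperones were fitted below 0 for 10 of 14 genes in HSCs, 8 of 14 in CLPs and 11 of 14 in GMPs, and the TRiC and prefoldin subunits for 6, 2 and 5 of 14. Endoplasmic reticulum chaperones, a separate set that serves secreted proteins, were fitted below 0 for 15 of 15 genes in GMPs and for 14 of 15 in HSCs and in CLPs.

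**Figure D1:**
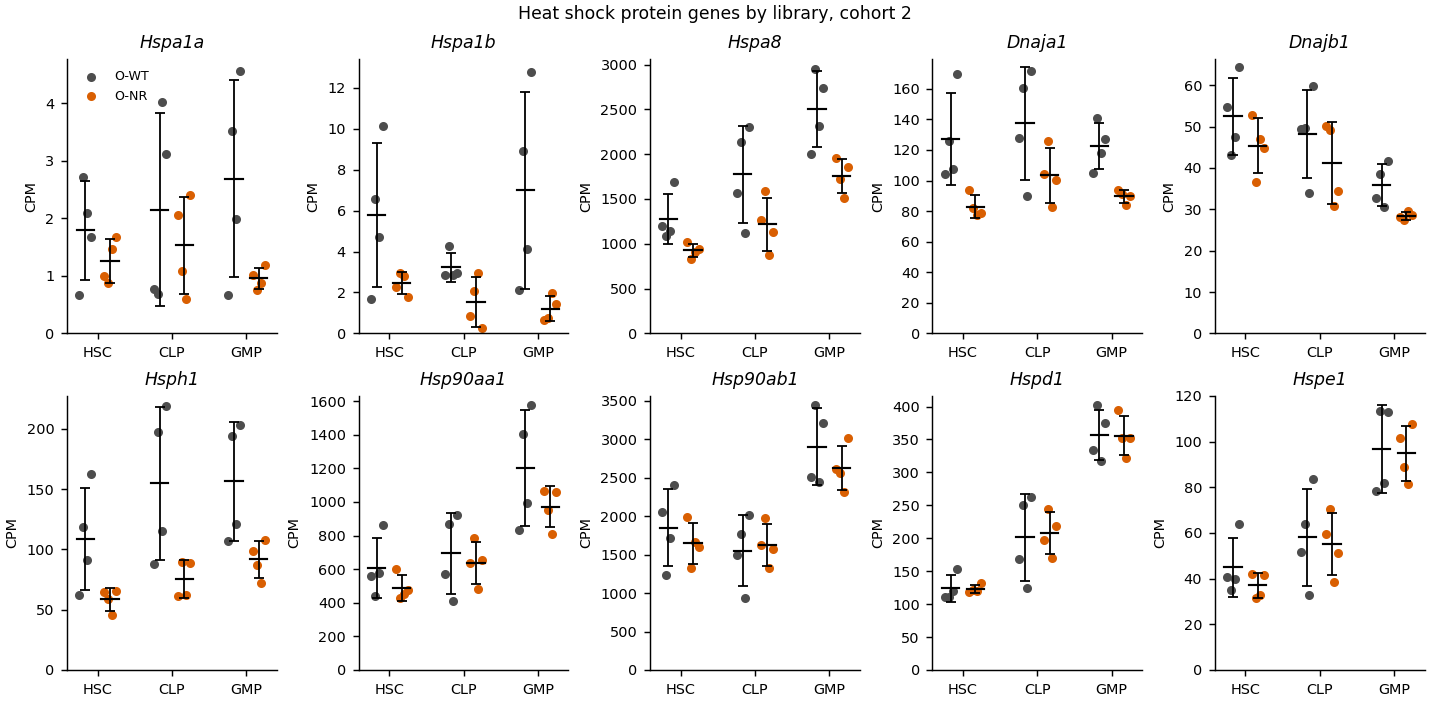
Levels of the 10 members in each of the 24 libraries of cohort 2, in CPM on linear axes that start at 0, by cell type with O-WT (grey) and O-NR (orange) side by side. Points are libraries, and bars give the mean ± SD of 4 libraries. The spread among O-WT libraries is wider than among O-NR libraries for Hsph1 and Hspa1b in HSCs and GMPs, and Dnaja1 and Hspa8 do not overlap between treatments in those cell types.

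NR in CLPs gave the test that the choice of genes did not use, although the mice may have been the same. No member passed the threshold in CLPs. Of 19909 genes tested 0 were called at an adjusted p below 0.05 by edgeR's quasi-likelihood test, DESeq2 called 0 as well, and 639 genes had an unadjusted p below 0.05. The smallest adjusted p of any gene was 0.764. Hsph1 was at 87.5, 197, 115 and 219 CPM in O-WT CLPs and at 61.1, 89.2, 61.8 and 88.8 CPM in O-NR. O-WT 1 alone lay within the range of O-NR. The log2 fold change was -1.04 ± 0.23, with an unadjusted p of 9.3e-05 and an adjusted p of 0.928 in edgeR's test. It was the 1 member with an unadjusted p below 0.01, a level reached in the lower direction by 0.256% of all genes tested. The adjusted p ran from 0.0679 to 1.0 over the alternatives that made no use of library numbers.

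Dnaja1 was at 128, 161, 89.7 and 172 CPM in O-WT CLPs and at 104, 126, 82.7 and 100 CPM in O-NR, and its groups overlapped, with a log2 fold change of -0.41 ± 0.21. Hspa8 was at 1562, 2133, 1118 and 2298 CPM against 1267, 1584, 879 and 1130 CPM, or -0.55 ± 0.29. For both genes O-WT 3 was the low O-WT library, and it had the smallest total of reads. It also had the highest receptor background of cohort 2, at 8303 CPM. Without it Hspd1 had -0.12 and Hsp90ab1 -0.11. The part of depth or background in these values was not tested. The remaining members lay closer to 0, with -0.23 ± 0.20 for Dnajb1, -0.12 ± 0.26 for Hsp90aa1, -0.08 ± 0.22 for Hspe1, 0.05 ± 0.23 for Hspd1 and 0.07 ± 0.29 for Hsp90ab1. Hspa1b had 0.254 to 2.95 CPM in O-NR and 2.83 to 4.29 CPM in O-WT, with an unfiltered log2 fold change of -1.03 ± 0.59 and an adjusted p of 1.0 in edgeR's test. Of the 8 tested members 6 were fitted below 0, where 50.7% of all genes were. Markers of other cells differed in the same CLP libraries, none of them called. Neutrophil markers were fitted below 0 for 6 of 6, with a summed level of 50.7 to 206 CPM in O-WT and 16.4 to 162 CPM in O-NR. HSC markers were below 0 for all 4 tested of 5, at 53.0 to 83.1 against 47.6 to 59.2 CPM. Plasma and B cell markers were above 0 for all 6 tested of 7, at 443 to 830 against 725 to 898 CPM. GMP markers were above 0 for 4 of 5, at 276 to 468 against 393 to 592 CPM. None of these markers was at 0 in every library of a group, and their part in the members' levels was not tested. All 12 of the other mitochondrial chaperones and proteases were fitted above 0 in CLPs, none of them called. An NR effect in one cell type was not tested against that in another.

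**Figure D2:**
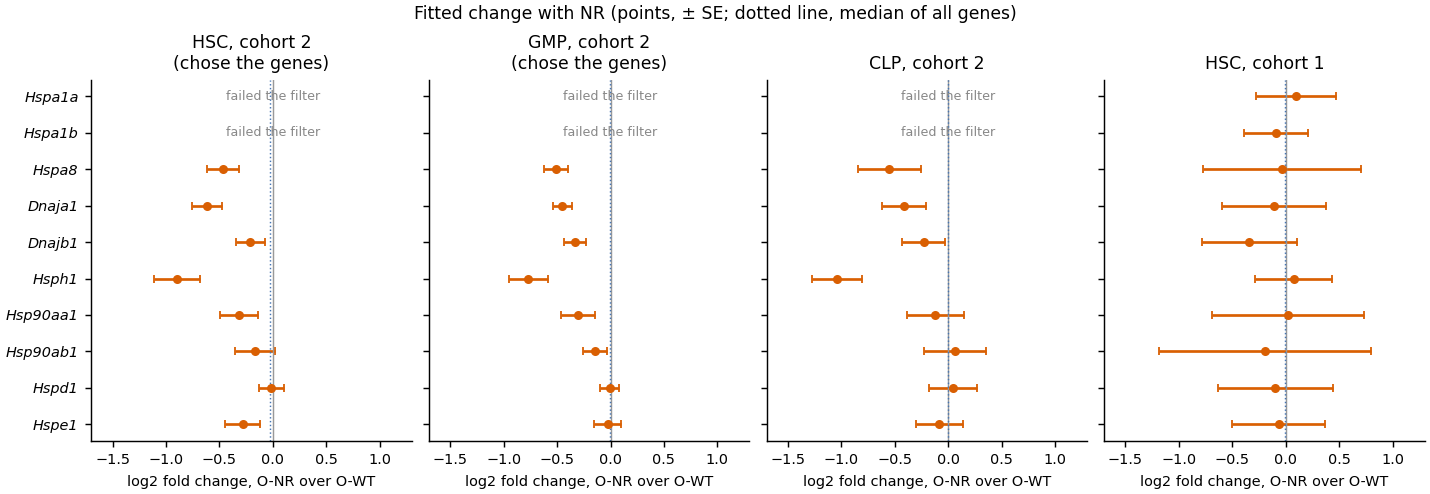
Log2 fold changes of O-NR against O-WT with their SE for each member in HSCs, GMPs and CLPs of cohort 2 and in HSCs of cohort 1, with a dotted line at the median of all genes. In HSCs, CLPs and GMPs of cohort 2 Hsph1 lies at -0.90, -1.04 and -0.77 and Dnaja1 at -0.62, -0.41 and -0.45, while Hspd1 lies at -0.02, 0.05 and -0.01.

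Of the 10 members, 8 varied together between libraries of one group. Centred within group over the 24 libraries of cohort 2, Pearson's r between pairs of the 8 ran from 0.37 for Dnajb1 with Hsph1 to 0.97 for Hspa8 with Hspe1. Hspa1a had r from -0.07 to 0.45 with the others and Hspa1b from 0.12 to 0.42, both at few reads. When each member's log2 CPM was centred within its group and averaged over the 10 members, O-WT libraries numbered 4 lay at 0.48 (HSCs), 0.44 (CLPs) and 0.40 (GMPs), with 10, 9 and 10 of the members above their group mean. O-WT libraries numbered 1 lay at -0.36, -0.24 and -0.51, with 2, 2 and 0 members above it. Those numbered 3 lay at -0.06, -0.37 and -0.21. Those numbered 2 were at -0.06 in HSCs and at 0.17 and 0.32 in the progenitors. Among O-NR libraries the averages stayed between -0.26 and 0.30. Number 4 was thus the highest of the untreated libraries in each of the 3 cell types. The lowest was number 1 in HSCs and GMPs and number 3 in CLPs. Since 8 members varied together, the numbers of members above the mean are not independent counts. Over all genes, O-WT libraries of one number had r from 0.11 to 0.35 between HSCs and CLPs, but from -0.47 to -0.01 between HSCs and GMPs and from -0.44 to 0.01 between CLPs and GMPs. The values are given as a description and with no test.

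**Figure D3:**
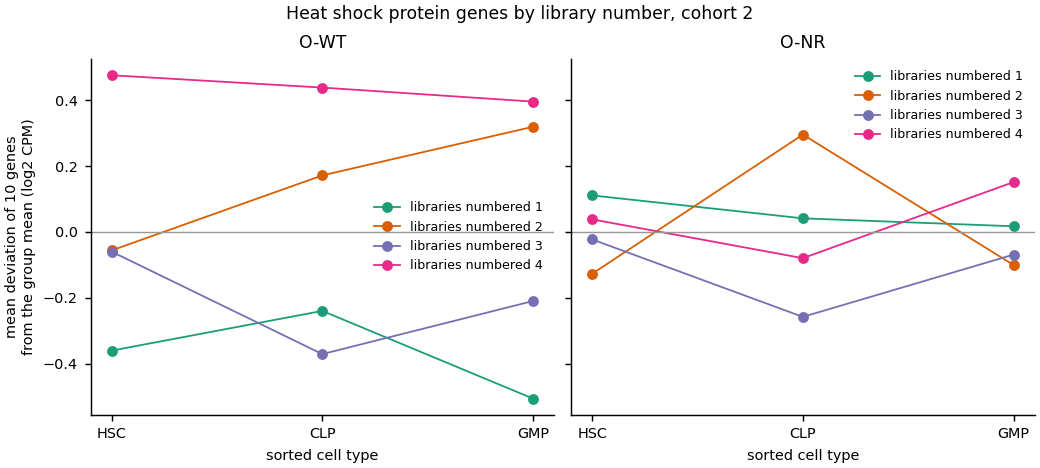
Mean deviation of the 10 members from their group mean in log2 CPM, for each library number in the 3 cell types, in O-WT (left) and O-NR (right) of cohort 2. Lines join libraries with the same number, which are not known to be of the same mouse. O-WT libraries numbered 4 lie highest at 0.40 to 0.48, and those numbered 1 lie at -0.24 to -0.51.

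Genes that are no members but followed the average of the 10 most closely over the 24 libraries, centred within group, were Pbdc1 (r = 0.85), Hnrnpc (0.85), Stip1 (0.83), Rangap1 (0.83), Fkbp4 (0.82), Chordc1 (0.81), Ahsa1 (0.81) and Uimc1 (0.81). Stip1 joins Hsp70 to Hsp90, Ahsa1 stimulates the Hsp90 ATPase, Fkbp4 is an immunophilin carried by Hsp90 and Chordc1 binds Hsp90. Hnrnpc packages nascent transcripts and Rangap1 acts in nuclear transport. By Spearman's rho 6 of these 8 were again among the 8 closest genes. The members' own r with the average, which contains them, ran from 0.46 for Hspa1a to 0.89 for Hsp90aa1. Of 22800 genes, 4.47% had an r above 0.5. The points share libraries and depth, and no test was made.

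Between cell types, 5 members were higher in GMPs than in both HSCs and CLPs, and against HSCs the chaperonin pair Hspd1 and Hspe1 had the largest differences of the members tested. These contrasts use the same libraries as above, but compare cell types within one treatment, so that the O-WT and the O-NR set have no library in common. Within a set the 3 contrasts share libraries. CPM values in the next 4 paragraphs were scaled by TMM over the 12 libraries of one treatment and differ from those above. The median of all genes tested was itself not at 0, lying at -0.40 for GMPs against HSCs and at -0.32 for GMPs against CLPs in O-WT, and at -0.08 and -0.14 in O-NR.

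Hspd1, the Hsp60 chamber (chr1:55077835-55088243, minus strand), averaged 122 ± 19.2 CPM in HSCs of O-WT, 180 ± 57.0 CPM in their CLPs and 423 ± 76.9 CPM in their GMPs (SD, n = 4 each). It was higher in GMPs than in HSCs by 1.79 ± 0.22 on the log2 scale, with an adjusted p of 2.4e-08 in edgeR's test, and no library of the groups overlapped. Hspe1, its lid (chr1:55088132-55091307, plus strand), averaged 44.1 ± 12.4, 51.8 ± 18.7 and 114 ± 27.2 CPM and was higher in GMPs than in HSCs by 1.37 ± 0.22 with an adjusted p of 4.4e-06 in edgeR's test. In O-NR the differences were 1.87 ± 0.15 for Hspd1 and 1.69 ± 0.17 for Hspe1. Over 3 scalings of the libraries, Hspd1 was higher in O-WT GMPs than in O-WT HSCs by 1.60 (upper quartile) to 2.04 (DESeq2). Relative to the median of all genes it was higher by 2.17 to 2.19. Scaling moves all genes nearly alike, so subtracting the median narrows this range by design.

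In the cytosol, Hsp90aa1 (chr12:110690605-110702728, minus strand) was higher in O-WT GMPs than in HSCs by 1.24 ± 0.26, at 1415 ± 409 against 599 ± 173 CPM. Hspa8 had the same difference of 1.24 ± 0.26, at 2966 ± 689 against 1258 ± 271 CPM. Hsp90ab1 (chr17:45567775-45573271, minus strand) was higher by 0.92 ± 0.27 and Hsph1 by 0.79 ± 0.26, with adjusted p of 0.00525 and 0.0138 in edgeR's test. Dnaja1 had 0.22 ± 0.20 and Dnajb1 (chr8:83608193-83612653, plus strand) -0.29 ± 0.17, and neither J protein passed the threshold. In O-WT, 6 of the 9 members tested were called higher in GMPs than in HSCs, as were 21% of all genes tested. In O-NR it was 7 of 8, where 25% of all genes were, with Dnaja1 added at 0.44 ± 0.14 and an adjusted p of 0.0116 in edgeR's test. Whether the cell type difference of Dnaja1 differed between treatments was not tested.

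Against CLPs, O-WT GMPs had 6 of 9 members called higher, Hspa1b among them, as were 27.2% of all genes. The differences were 1.31 ± 0.27 for Hsp90ab1, 1.23 ± 0.21 for Hspd1, 1.19 ± 0.26 for Hsp90aa1, 1.13 ± 0.22 for Hspe1 and 0.90 ± 0.25 for Hspa8. The remaining one was Hspa1b at 1.49 ± 0.45, with an adjusted p of 0.00653 in edgeR's test. Its groups overlapped, and it was not called with upper quartile scaling. Hspa1b passed the filter only through the groups in which it was high, so nothing is read from its call. The summed copies Hspa1a and Hspa1b had 1.22 ± 0.41 in the same contrast, with an adjusted p of 0.0131 in edgeR's test. In O-NR 6 of 8 members were called higher than in CLPs, as were 25.5% of all genes, and these were Hspe1 at 1.15 ± 0.17, Hspd1 at 1.14 ± 0.15, Hsp90ab1 at 1.06 ± 0.18, Hsp90aa1 at 0.97 ± 0.17, Hspa8 at 0.90 ± 0.17 and Hsph1 at 0.65 ± 0.16. Hspd1, Hspe1, Hspa8, Hsp90aa1 and Hsp90ab1 were called in all 4 contrasts of GMPs under each of 3 scalings.

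CLPs and HSCs were close to each other. In O-WT, Hspd1 was the 1 member called, higher in CLPs by 0.56 ± 0.21 with an adjusted p of 0.0424 in edgeR's test, where 9.57% of all genes were called higher. That call was lost when any of 6 of the 8 libraries was left out. The fit behind it took the libraries as unpaired, although same-numbered O-WT HSC and CLP libraries deviated together over all genes. The call was also lost with the library number as a block over the 12 O-WT libraries, at 0.51 with an adjusted p of 0.0655 in edgeR's test. Those 12 libraries include the GMPs, and a paired fit of HSCs and CLPs alone was not made. In O-NR, Hspd1 was higher by 0.73 ± 0.15 and Hspe1 by 0.54 ± 0.17, with adjusted p of 0.000168 and 0.0124, and 19.8% of all genes were called higher. In the main fits Dnajb1 was called in none of the 6 contrasts between cell types. With upper quartile scaling it was called lower in every contrast of GMPs. The values were -0.47 against HSCs and -0.45 against CLPs in O-WT, and -0.58 and -0.49 in O-NR. There the median of all genes lay at -0.58, -0.74, -0.33 and -0.47 in the same order. No member was called lower in the main fits of the 6 contrasts. The share of all genes called lower was 20.7% (O-WT) and 20.9% (O-NR) for CLPs against HSCs. It was 25.7% and 20.8% for GMPs against HSCs, and 34.9% and 23.8% for GMPs against CLPs.

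Related chaperones showed how far the pattern reached. In O-WT GMPs against HSCs, 12 of 14 subunits of the cytosolic chaperonin TRiC and of prefoldin were called higher, led by Pfdn6 at 1.35 ± 0.19 and Tcp1 at 1.44 ± 0.21. Hsp90 cochaperones were called higher for 10 of 14, led by Nudc at 1.65 ± 0.23 and Fkbp4 at 1.5 ± 0.21. Of the other mitochondrial chaperones and proteases 9 of 12 were called higher and 1 lower, led by Grpel1, the exchange factor of mitochondrial Hsp70, at 1.62 ± 0.18, and Trap1, the mitochondrial Hsp90, at 1.15 ± 0.18. Endoplasmic reticulum chaperones were called higher for 14 of 15, with Sdf2l1 at 4.08 ± 0.22 and Manf at 2.46 ± 0.20. Among nucleotide exchange factors 6 of 9 were called higher, led by Bag1 at 1.26 ± 0.20.

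Other genes of the same families went both ways. Of the other J proteins 6 of 12 were called higher and 3 lower, and Dnaja4 was lower by 2.36 ± 0.25 on the log2 scale, Dnajb2 by 1.84 ± 0.20. Of the other Hsp70 and Hsp110 genes 4 were called higher and 2 lower, with Hspa12b at -3.20 ± 0.28 and Hspa13 at 1.29 ± 0.17. Small heat shock proteins were called lower for 2 of the 3 tested, with Hspb8 at -2.48 ± 0.46. Immediate early genes, which respond to signals within minutes, were called lower in GMPs for 8 of 13 and higher for 1, with Egr1 at -3.79 ± 0.30. None of the 3 heat shock factor genes was called, and Hsf1 lay at 0.04 ± 0.18. These genes are not members, and of all genes tested 21% were called higher and 25.7% lower in this contrast.

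Levels between genes can be compared only per length, and here CPM scaled over cell types was divided by the merged exon length in kilobases. In O-WT HSCs the order was Hsp90ab1 at 608 ± 167 CPM per kb, Hspa8 at 293 ± 62.9, Hsp90aa1 at 152 ± 44.0, Hspd1 at 46.2 ± 7.25, Hspe1 at 29.9 ± 8.44, Dnajb1 at 16.1 ± 2.91, Hsph1 at 14.6 ± 5.56, Dnaja1 at 14.5 ± 3.28, Hspa1b at 2.01 ± 1.22 and Hspa1a at 0.590 ± 0.277 (SD, n = 4). Hspd1 overlapped with Hspe1 across libraries, Dnajb1, Hsph1 and Dnaja1 overlapped one with the next, and so did Hspa1b and Hspa1a. The highest and the lowest member differed 1031-fold in HSCs, 703-fold in CLPs and 1086-fold in GMPs. In CLPs Hsp90ab1 at 462 ± 134 and Hspa8 at 369 ± 108 overlapped, while in GMPs they stood apart at 1147 ± 267 and 690 ± 160 CPM per kb. With the mean transcript length in place of merged exons, 6 of 10 members kept their place and Dnaja1 moved from the 8th to the 5th.

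**Figure D4:**
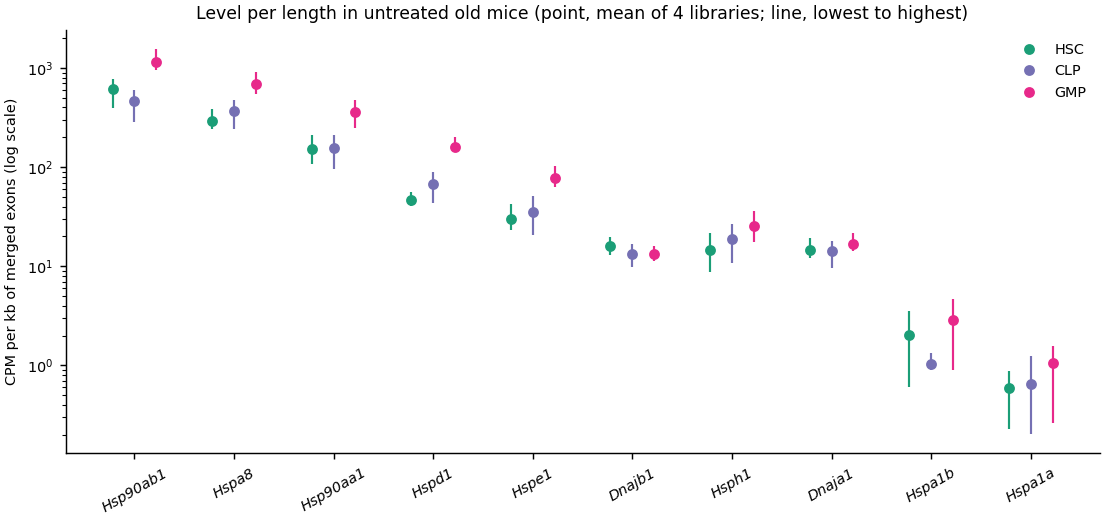
Levels of the 10 members per kilobase of merged exons in O-WT HSCs, CLPs and GMPs of cohort 2, in CPM per kb on a log axis, with points for the mean of 4 libraries and lines from the lowest to the highest library. Hsp90ab1 is at the top in each cell type, at 608, 462 and 1147 CPM per kb, and Hspa1a at the bottom.

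Cohort 1 asked whether levels in HSCs changed with NR and after its withdrawal. No gene was called in the 3 contrasts by edgeR's test over 33350 genes, where 182 genes for O-NR against O-WT, 97 for O-NR-RC against O-NR and 265 for O-NR-RC against O-WT had an unadjusted p below 0.05. DESeq2 called 2 genes for O-NR-RC against O-NR and 0 in the other contrasts. The members' levels split the libraries along the background of receptor reads, and this split was not particular to them. Over all genes above the filter, the main axis of a principal component analysis held 76.2% of the variance. On it the same 4 libraries lay at 56.86 to 67.51, and the other 5 at -89.95 to -7.078. Summed over the 10 genes, the 4 libraries with the high background held 1647 to 2048 CPM and the other 5 held 3691 to 5910 CPM. Whether this background moved the members was not tested.

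Dnaja1 was at 65.1 and 81.1 CPM in O-WT 1 and 2, at 39.5, 43.1, 97.2 and 91.2 CPM in O-NR 1 to 4 and at 104, 43.9 and 47.7 CPM in O-NR-RC 1 to 3. The low values in O-NR and O-NR-RC were those of the 4 libraries named above. Hspa8 was at 625 and 853 CPM, at 404, 486, 964 and 1034 CPM, and at 1052, 350 and 366 CPM in the same order. Hspd1 was at 81.9 and 105.4 CPM in O-WT, at 52.6, 54.7, 109 and 134 CPM in O-NR and at 139, 46.6 and 50.5 CPM in O-NR-RC. Hsph1 differed, since O-NR-RC 1 to 3 were nearly equal at 41.3, 40.1 and 40.6 CPM. Hspa1a and Hspa1b did not separate the 4 libraries either, lying between 1.53 and 4.09 CPM in all 9.

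Log2 fold changes of O-NR against O-WT in cohort 1 ran from -0.34 ± 0.45 for Dnajb1 to 0.10 ± 0.37 for Hspa1a, with an SE of 1.0 for Hsp90ab1, and 7 of 10 members were below 0, where 50.9% of all genes were. After withdrawal, the fitted values of all 10 members were below those in O-NR, where 43.4% of all genes were, with the largest difference of -0.46 ± 0.32 for Hsph1. Against O-WT 9 of 10 were below 0, where 48.2% of all genes were. Dnaja1 had -0.11 ± 0.49 for O-NR against O-WT. The SE of the 8 members other than Hspa1a and Hspa1b ran from 0.32 to 1.05 over the contrasts, and differences of the size fitted in cohort 2 were within that error for most of them. Without the 4 libraries, O-WT and O-NR had 2 libraries each and O-NR-RC had 1, which was assumed to vary like the others. No member was then called, the smallest adjusted p being 0.0652 for Hsph1 in O-NR-RC against O-NR, while of 28275 genes 63 were called higher and 13 lower for O-NR against O-WT, 146 and 19 for O-NR-RC against O-NR and 464 and 112 for O-NR-RC against O-WT. The directions did not hold. The members below 0 were 0 of 10 for O-NR against O-WT, where 57.7% of all genes were, 5 of 10 for O-NR-RC against O-NR (52.5%) and 3 of 10 for O-NR-RC against O-WT (57.4%). Dnaja1 had 0.34 and Hspa8 0.40 for O-NR against O-WT. With all libraries kept, neutrophil markers were higher in O-NR-RC than in O-NR for 6 of 6 genes, with a summed level of 62.1 to 99.9 CPM against 34.3 to 44.2 CPM. Erythroid markers were higher for all 5 tested of 6, at 19.3 to 121 against 18.7 to 21.0 CPM. Plasma and B cell markers were higher for 5 of 6 tested, at 62.2 to 289 against 32.8 to 58.7 CPM, and HSC markers lower for 5 of 5. No marker of these lists was called or at 0 in every library of any of these groups. Their part in the levels of the members was not tested.

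**Figure D5:**
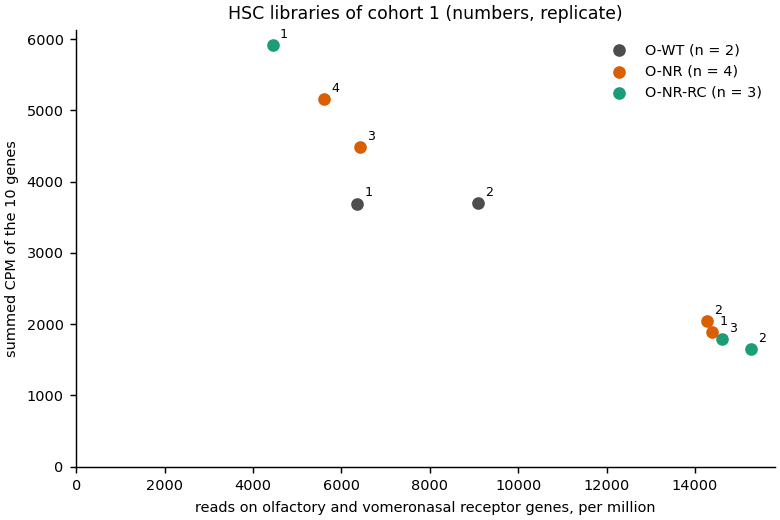
Summed CPM of the 10 members against the summed CPM of olfactory and vomeronasal receptor genes in the 9 libraries of cohort 1, by group. Numbers beside points are library numbers. The 4 libraries with 14277 to 15260 receptor CPM hold 1647 to 2048 CPM, and the other 5 hold 3691 to 5910 CPM. The same 4 libraries also stand apart over all genes.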

How the data were processed

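The authors trimmed the paired reads with cutadapt, aligned them with STAR to mm10 and counted them per gene of Gencode M22 with featureCounts. The deposited values are raw counts per gene symbol, whole numbers without normalization, for each of 33 libraries. The members and the gene lists were chosen with earlier results of these data known.

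A gene was kept if it passed 3 CPM in a number of libraries equal to the size of the smallest group. Libraries were scaled by TMM, and the quasi-likelihood test of edgeR was applied (edgeR 4.0.16, limma 3.58.1, R 4.3.3), with Benjamini-Hochberg adjustment over all genes and calls below 0.05. Each cell type of cohort 2, cohort 1, and the 12 libraries of one treatment were fitted as separate sets. Log values used a prior count of 2. The code was tested on simulated data. Alternatives were DESeq2 1.42.0, upper quartile scaling, a filter at 1 CPM or none, a 1.5-fold minimum, replicate blocks, summed Hspa1a and Hspa1b, single libraries left out and, chosen after seeing the data, the receptor background as a covariate and cohort 1 without its 4 high-background libraries.

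Named genes are all members, the 8 most alike genes and, per list and comparison, up to 3 with the smallest p among those called. Ighm was named after its values were seen. No pair of libraries of the same group agreed within sampling noise (smallest chi-square per degree of freedom 1.96). Pairs across groups were not checked. Intervals in cohort 1 rest on 2 to 4 libraries per group. Gene positions are from Gencode M21 (GRCm38), and promoters from RefSeq.

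The labels do not say what a library number marks. Names in the deposited counts carry 8 numbers in cohort 2, with 3 cell types per number. Same-numbered O-WT HSC and CLP libraries deviated together over all genes in 4 of 4 pairs (r from 0.11 to 0.35). Those of no other 2 groups of cohort 2 did so in every pair. The main fits took all libraries as unpaired. The number entered only as a replicate block, which for O-WT cell types was fitted with the GMP libraries included. A paired fit of O-WT HSCs and CLPs alone was not made.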

Additional observations from a re-analysis of the deposited data

Results flagged for a closer look

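In 70 groups of 4 libraries examined, 1 for each member and group, 2 held a library far from the other 3 by Dixon's gap, which chance alone does for about 1 group in 20. Hspa1b was at 4.29 CPM in O-WT CLP 2, while the other 3 O-WT CLP libraries lay between 2.83 and 2.93 CPM, and the gap was 0.934 of the range. Hspd1 was at 133 CPM in O-NR HSC 4, while the others lay between 118 and 121 CPM, with a gap of 0.843 of the range.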

How the results depend on the processing

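Over the settings tried, 305 counts of members kept their value to within 1.5 times and 29 moved, while of the values of single genes 1291 were kept (in a contrast without a test, moving by less than the spread between replicates), 135 in tested contrasts changed direction, 21 became called and 22 lost the call. No member called in a contrast of GMPs with another cell type reversed. In the contrasts without a test, leaving out single libraries took Hspd1 from -0.06 to 0.11 for NR in HSCs and from -0.06 to 0.06 in GMPs, and Hspe1 from -0.12 to 0.06 in GMPs. Depth limits Hspa1a and Hspa1b most, with 2 to 154 reads a library in cohort 2. The causes were not tested.

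Same-numbered libraries deviated together in every pair only for O-WT HSCs with O-WT CLPs, and the main fits did not use the numbers. For NR against untreated in HSCs, the r of same-numbered libraries ran from -0.27 to 0.59, in CLPs from -0.16 to 0.27 and in GMPs from -0.04 to 0.21, and the other pairs of cell types also had values below 0.1. With the number as a replicate block, 1 member was called lower in CLPs, Hsph1 at -0.97 with an adjusted p of 0.0040 in edgeR's test. That block joined O-WT and O-NR libraries by library number, and they are not known to belong together. The names of the deposited counts give such libraries different numbers. Nothing is therefore read from this call. Hspd1 in O-WT CLPs against HSCs had an adjusted p of 0.0655, which left 0 members called there, and Hsph1 in O-WT GMPs against CLPs was called at 0.46 with an adjusted p of 0.0404. The members below 0 in O-NR-RC against O-NR went from 10 to 6. No other call changed with the block, and directions turned for Hsph1 -0.16 and Hsp90aa1 -0.41 in O-NR against O-WT in cohort 1, Dnaja1 0.18, Dnajb1 0.15, Hsp90ab1 0.14 and Hspd1 0.088 in O-NR-RC against O-NR, Hspa1a -0.032 in O-NR-RC against O-WT, Hsp90aa1 -0.0045 in O-WT CLPs against HSCs.

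Among counts of called members, O-WT CLPs against HSCs had 1 lower at the 1 CPM filter and with no filter, 2 higher with upper quartile scaling, and 0 higher at 1 CPM, with no filter and with a 1.5-fold minimum. Upper quartile scaling gave 1 lower, Dnajb1, in GMPs against HSCs and against CLPs in O-WT and O-NR. It gave 6 higher in O-NR CLPs against HSCs, where 1 CPM and the 1.5-fold minimum gave 1 and no filter 0. The summed Hspa1a and Hspa1b were called in 2 comparisons with no filter, and 6 members kept their place in the order of levels. Leaving out single libraries gave 0 to 1 lower and 0 to 1 higher in O-WT CLPs against HSCs, 1 to 4 higher in O-NR CLPs against HSCs and 0 to 1 lower in O-NR GMPs against HSCs. It ended the calls of Hspd1 in O-WT CLPs against HSCs without HSC 1, 2 or 3 or CLP 1, 2 or 4, of Hspe1 in O-NR CLPs against HSCs without HSC 3 or CLP 2, and of Dnaja1 in O-NR GMPs against HSCs without HSC 4 or GMP 1. The share of calls that were higher moved with scaling from 31.6% to 43.5% (DESeq2) and 51.2% (upper quartile) in O-WT CLPs against HSCs, from 45.0% to 59.9% (DESeq2) in O-WT GMPs against HSCs, from 43.8% to 23.5% (upper quartile) in O-WT GMPs against CLPs, from 54.5% to 41.0% in O-NR GMPs against HSCs and from 51.7% to 27.4% in O-NR GMPs against CLPs, the last pair with upper quartile scaling.

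Directions turned under other settings as follows, on the log2 scale. DESeq2 gave Hspa8 0.015 for O-NR against O-WT in cohort 1, Dnajb1 0.00040 and Hsp90ab1 0.013 for O-NR-RC against O-NR, Dnaja1 0.054 for O-WT CLPs against HSCs, Dnajb1 0.14 for O-WT GMPs against CLPs. The 1 CPM filter gave Dnajb1 0.0026 and Hsp90ab1 0.0088 for O-NR-RC against O-NR, Hsp90aa1 -0.11 for O-WT CLPs against HSCs, Dnajb1 0.22 for O-WT GMPs against CLPs, Dnajb1 0.021 for O-NR GMPs against CLPs, and no filter gave Dnajb1 0.0066 and Hsp90ab1 0.014 for O-NR-RC against O-NR, Hsp90aa1 -0.0092 for O-WT CLPs against HSCs, Dnajb1 0.32 for O-WT GMPs against CLPs, Dnajb1 0.010 for O-NR GMPs against CLPs. Upper quartile scaling gave Hspd1 -0.0088 for NR in CLPs, Hspa1a 0.072 for O-NR-RC against O-NR, Dnaja1 0.21 for O-WT CLPs against HSCs, Dnaja1 -0.19 and Hsph1 -0.0097 for O-WT GMPs against CLPs, Hsp90ab1 0.032 for O-NR CLPs against HSCs, Dnaja1 -0.16 for O-NR GMPs against CLPs. The background covariate gave Hsp90ab1 -0.039 and Hspd1 -0.042 for NR in CLPs, Hspa1a -0.0028, Hspa8 0.047 and Hspe1 0.019 for O-NR against O-WT in cohort 1, Dnaja1 0.0080 and Dnajb1 0.027 for O-NR-RC against O-NR, Hspa1a -0.11 for O-NR-RC against O-WT.

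Without the 4 high-background libraries, where O-NR-RC is 1 library assumed to vary like the others, the values were Hspa1b 0.016, Dnaja1 0.34, Dnajb1 0.086, Hspa8 0.40, Hsp90ab1 0.31, Hspd1 0.34 and Hspe1 0.37 for O-NR against O-WT in cohort 1, Dnaja1 0.058, Dnajb1 0.15, Hsp90aa1 0.035, Hsp90ab1 0.36 and Hspd1 0.11 for O-NR-RC against O-NR, Hspa1a -1.002, Dnaja1 0.40, Dnajb1 0.24, Hspa8 0.39, Hsp90aa1 0.53, Hsp90ab1 0.67, Hspd1 0.45 and Hspe1 0.064 for O-NR-RC against O-WT.

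Single libraries left out gave these ranges of log2 values. NR in CLPs was -0.30 to 0.072 for Hsp90aa1, -0.11 to 0.24 for Hsp90ab1, -0.12 to 0.22 for Hspd1 and -0.27 to 0.18 for Hspe1. O-NR against O-WT in cohort 1 was -0.21 to 0.46 for Hspa1a, -0.20 to 0.033 for Hspa1b, -0.33 to 0.077 for Dnaja1, -0.26 to 0.50 for Hsph1, -0.26 to 0.20 for Hspa8, -0.26 to 0.22 for Hsp90aa1, -0.50 to 0.0093 for Hsp90ab1, -0.38 to 0.087 for Hspd1 and -0.31 to 0.11 for Hspe1. O-NR-RC against O-NR was -0.28 to 0.34 for Hspa1a, -0.29 to 0.055 for Hspa1b, -0.56 to 0.17 for Dnaja1, -0.56 to 0.23 for Dnajb1, -1.07 to 0.013 for Hsp90aa1, -1.01 to 0.31 for Hsp90ab1 and -0.85 to 0.13 for Hspd1. O-NR-RC against O-WT was -0.23 to 0.43 for Hspa1a, -0.67 to 0.049 for Dnaja1, -1.05 to 0.038 for Hsp90aa1, -1.20 to 0.12 for Hsp90ab1 and -0.95 to 0.0078 for Hspd1. O-WT CLPs against HSCs was -0.15 to 0.21 for Dnaja1, -0.13 to 0.29 for Hsp90aa1 and -0.010 to 0.49 for Hspe1. O-WT GMPs against CLPs was -0.20 to 0.21 for Dnajb1. O-NR CLPs against HSCs was -0.22 to 0.0041 for Hsp90ab1.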
